A study of Mus musculus with 4 samples.

Results

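Glycogen metabolism and glucose entry were followed through 8 genes: the phosphatase-targeting subunits Ppp1r3b and Ppp1r3c, the glycogen-building enzymes Gys2, Gbe1 and Ugp2, the glycogen-degrading enzyme Pygl, and the glucose entry genes Gckr and Slc2a2. They were chosen by symbol, and 13 of the 45101 probe sets of the array were annotated to them. They make up 8 of the 18193 genes with a probe set of their own, and all 8 passed the low-level filter that kept 11513 genes.

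Livers came from C57BL/6J mice aged 2 months injected intraperitoneally with the aromatic solvent ethylbenzene or with saline buffered by phosphate (PBS), first in 2 injections 24 h apart and again 7 days later, and were taken 5 h after the second exposure. Groups are named by first and second exposure: E+E and P+E (5 mice each, ethylbenzene second), E+P and P+P (3 mice each, PBS second), with 7 mmol per kg in each ethylbenzene dose. Liver RNA of each group was pooled and put on 1 Affymetrix array, so no value has a replicate, the spread between animals is unknown, and no p-value is given. Pool size went with the second exposure and cannot be told apart from it.

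The liver stores glucose as glycogen after a meal and releases it between meals. Glucose crosses the hepatocyte membrane through the transporter encoded by Slc2a2 and is then phosphorylated, a step that the protein encoded by Gckr regulates. Ugp2 makes UDP-glucose, the glucose donor. Gys2, the liver glycogen synthase, adds it to the growing chain, and Gbe1 introduces the branches. Pygl, the liver glycogen phosphorylase, takes glucose units off. Ppp1r3b and Ppp1r3c tether a protein phosphatase to the glycogen particle, where it activates the synthase and inactivates the phosphorylase.

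The promoter windows shown are those of the 3 member genes whose window held a motif searched for. Of the genes lower after ethylbenzene only Ppp1r3c is among them. Ugp2, Slc2a2 and Gbe1 held no such motif, and Ppp1r3b and Gys2 had no window. Ppp1r3c had the lowest second-exposure ratios of the 8 genes through the brighter of its 2 probe sets. Through the other, Gys2 was lower in both ratios, and Ppp1r3b, Ugp2 and Slc2a2 were lower for E+E over E+P. Pygl and Gckr were the 2 that were not lower after ethylbenzene. Each window runs from 250 bases before to 50 bases after the annotated start, 5′ to 3′ on the gene's own strand, from RefSeq (build GRCm38.p6). Capitals mark motif matches: the E-box CACGTG in Ppp1r3c, the core of the cAMP response element TGACG (here on the opposite strand) in Pygl, and the core of the glucocorticoid response element AGAACA (once on each strand) in Gckr.
Ppp1r3c, chr19:36736555-36736854, minus strand: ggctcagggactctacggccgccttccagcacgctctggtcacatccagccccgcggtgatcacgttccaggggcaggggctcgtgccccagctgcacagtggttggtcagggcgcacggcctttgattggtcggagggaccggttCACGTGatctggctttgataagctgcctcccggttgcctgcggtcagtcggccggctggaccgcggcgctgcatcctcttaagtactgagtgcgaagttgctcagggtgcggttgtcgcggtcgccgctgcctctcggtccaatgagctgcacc
Pygl, chr12:70227634-70227933, minus strand: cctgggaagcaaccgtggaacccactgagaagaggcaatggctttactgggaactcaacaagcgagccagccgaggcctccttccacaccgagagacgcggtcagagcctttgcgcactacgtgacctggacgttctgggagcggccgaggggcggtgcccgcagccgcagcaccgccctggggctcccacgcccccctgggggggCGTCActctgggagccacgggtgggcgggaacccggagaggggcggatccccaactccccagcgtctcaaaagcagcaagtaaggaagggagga
Gckr, chr5:31297313-31297612, plus strand: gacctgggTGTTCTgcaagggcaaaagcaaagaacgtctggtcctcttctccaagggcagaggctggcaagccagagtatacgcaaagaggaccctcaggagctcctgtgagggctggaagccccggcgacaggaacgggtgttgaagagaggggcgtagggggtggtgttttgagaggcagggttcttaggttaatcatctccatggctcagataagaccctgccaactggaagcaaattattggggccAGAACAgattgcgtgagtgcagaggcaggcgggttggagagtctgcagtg

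The E-box of Ppp1r3c begins 104 bases before the start (position -104), and 7.15% of the 32851 promoter windows in the table hold that motif on either strand. TGACG was found in 20.8% of windows and AGAACA in 19.0%, so both are common. The other windows of member genes, 1 each for Gbe1 and Slc2a2 and 2 for Ugp2, held none of the 9 motifs searched. Besides the motifs above these were the full cAMP response element TGACGTCA (1.79% of all windows), the forkhead motif GTAAACA (3.65%) and the STAT motif TTCNNNGAA (8.3%). Rarer were the D-box TTATGTAA (0.94%), the full glucocorticoid response element (3 windows of 32851) and the carbohydrate response element in the form searched (0 windows). Each was searched on both strands. Motifs this rare would be absent from nearly any small set of windows, so their absence says nothing about these genes. The cores lie within the full elements, and the carbohydrate response element is made of E-boxes. These are matches of letters and not measured binding sites.

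Control probe sets set the P+P array apart. Probe sets of 18S ribosomal RNA had geometric mean signals of 182 on E+E, 145 on P+E, 122 on E+P and 1872 on P+P, and the ratio of 3′ to 5′ signal of Pcx was highest on P+P, at 23.5 against 6.15 to 12.0 on the other arrays. The results that do not use P+P are therefore given beside those that do. The tissue matched its label, since 5 measured hepatocyte markers of 6 listed had summed signals between 569368 and 718031 on each array, with Alb among them. Signals are printed as deposited. Log2 ratios were taken after quantile normalization of the 4 arrays and addition of a pseudocount of 43.2, so they differ slightly from the ratio of the printed signals. A difference of at least 2-fold, or 1 on the log2 scale, served as a fixed rule of size.

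After ethylbenzene as second exposure Gys2 and Ppp1r3c were at least 2-fold lower for P+E over P+P through each of their probe sets. Ppp1r3b, Ugp2 and Slc2a2, through the probe set used, were lower by 1.61-fold to 2.12-fold in both second-exposure ratios. Gbe1 was lower, and Pygl and Gckr higher, by at most 0.29 on the log2 scale. Both arrays with ethylbenzene second lay below both arrays with PBS second for 6 of the 8 genes, Ppp1r3b, Ppp1r3c, Gys2, Gbe1, Ugp2 and Slc2a2, and above both for Pygl and Gckr. Over all genes 31.1% lay below in this way and 22.3% above, and among the 3838 most abundant genes, which hold 7 of the 8 (all but Ppp1r3c), 40.6% lay below and 24.9% above. In the ratio of P+E over P+P, 2 of the 8 were at least 2-fold lower (6.7% of all genes, 2.97% of the most abundant) and none at least 2-fold higher (6.53% and 5.39%). In the ratio of E+E over E+P, 3 of the 8 were at least 2-fold lower (6.75% of all genes, 3.36% of the most abundant) and none at least 2-fold higher (6.91% and 5.86%). The median log2 ratio of the 8 genes was -0.71 and -0.84, beside -0.07 and -0.05 over all 11513 genes. RNA of whole liver was measured, so fewer cells of a type and less RNA per cell cannot be told apart.

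**Figure D1:**
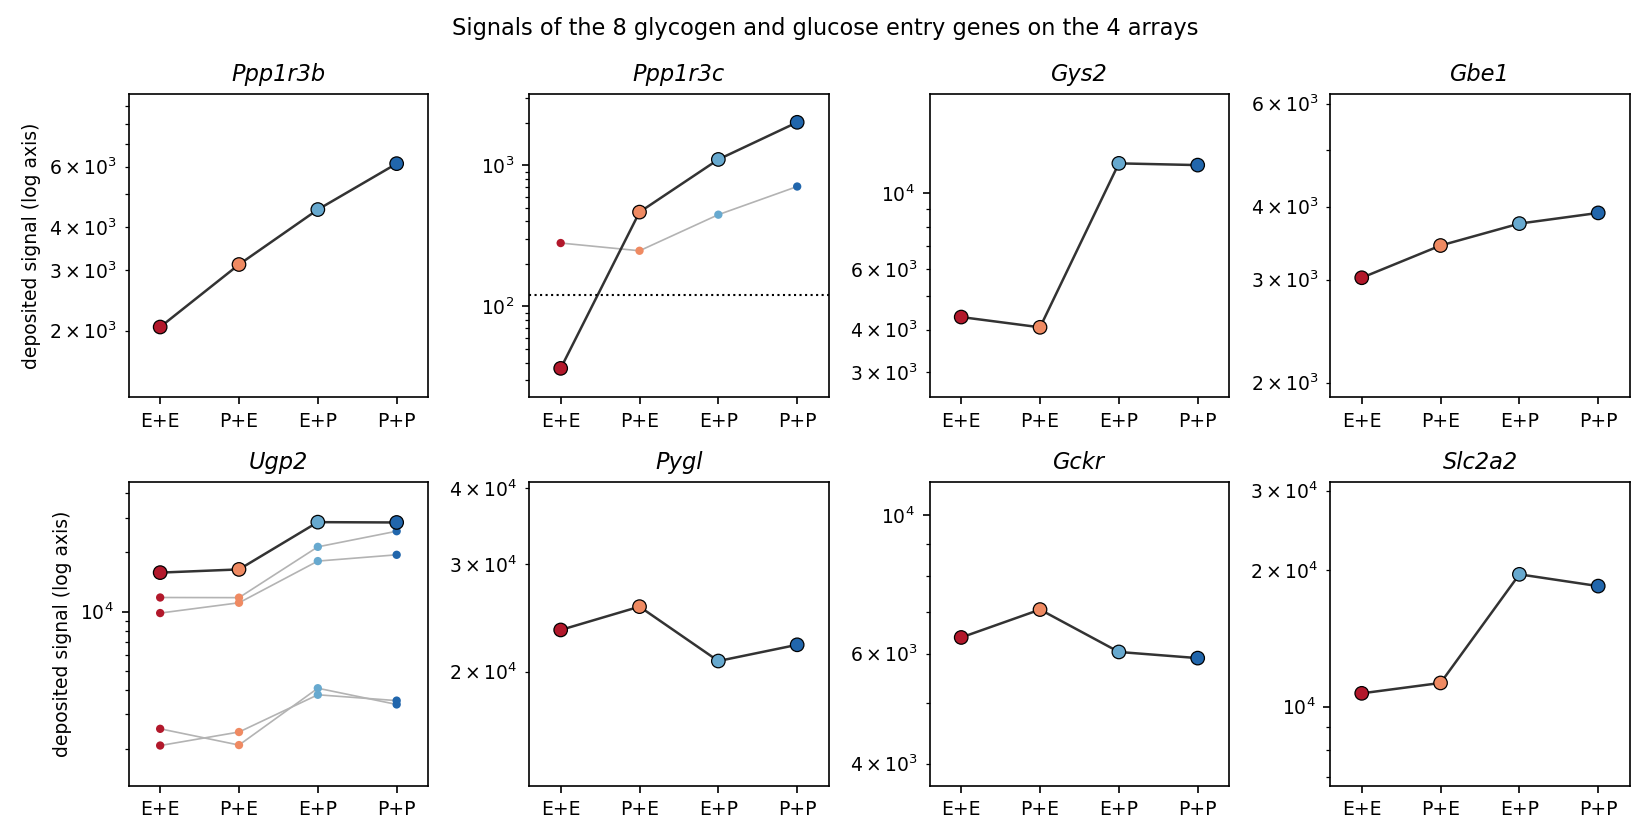
Deposited signal (log axis, arbitrary units) of the 8 genes on the 4 arrays, 1 panel a gene. Large points joined by a dark line are the probe set used, small points are the other probe sets of the gene, and the dotted line in the Ppp1r3c panel is the low-level filter. Gys2 sits at 4351 and 4061 on the E+E and P+E arrays and at 12237 and 12094 on the E+P and P+P arrays, while Pygl and Gckr hardly differ.

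Of the phosphatase-targeting subunits, Ppp1r3b encodes the form most typical of liver. Its only probe set read 2050 on E+E, 3116 on P+E, 4503 on E+P and 6124 on P+P. Signals were lower on each ethylbenzene-second array than on both others, and within each pair they were also lower after a first exposure to ethylbenzene. The log2 ratios were -0.92 for P+E over P+P (1.89-fold lower, short of the rule of 2-fold) and -1.08 for E+E over E+P (2.12-fold lower).

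Ppp1r3c encodes a related targeting subunit found in several tissues, muscle included. The brighter of its 2 probe sets read 36.4 on E+E, 466 on P+E, 1100 on E+P and 2017 on P+P, the widest range among the 8 genes. The E+E signal lay below the low-level filter, a signal of 120.0. For P+E over P+P the gene was 4.0-fold lower (log2 ratio -2.0), and for E+E over E+P it was at least 6.91-fold lower with E+E set to the filter level. The log2 ratio with the E+E signal as measured was -3.89, a value that rests on a signal below the filter.

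The second probe set of Ppp1r3c did not repeat the low E+E value. It read 281 on E+E, 248 on P+E, 447 on E+P and 707 on P+P, so both ethylbenzene-second arrays again lay below both others. Its log2 ratios were -1.41 for P+E over P+P and -0.65 for E+E over E+P. Both probe sets had lower signals after the second exposure in both ratios, but only 1 of the 2 was past 2-fold for E+E over E+P. Skeletal muscle, which also expresses Ppp1r3c, was checked through 5 markers, whose summed signal was 438 on E+E, 3117 on P+E, 1054 on E+P and 629 on P+P. That sum was lowest on E+E, as the brighter Ppp1r3c probe set was, but highest on P+E, where Acta1 alone read 1773. The markers did not agree, since Ckm was lowest on E+P (96.6) and Myh4 on P+P (46.6). Many of their signals lay below the low-level filter. The part of muscle in the result was not tested.

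Gys2, the liver glycogen synthase, gave the same picture in both comparisons. Its probe set read 4351 on E+E and 4061 on P+E, against 12237 on E+P and 12094 on P+P. The arrays fell into pairs by the second exposure. Gys2 was 2.85-fold lower for P+E over P+P (log2 ratio -1.51) and 2.79-fold lower for E+E over E+P (-1.48). Both ratios at least 2-fold lower was met by 2 of the 8 genes, and by 1.86% of all genes (1.88% of the most abundant). The 2 were Gys2 and, only through its brighter probe set, Ppp1r3c. None of the 8 was at least 2-fold higher in both, beside 2.87% of all genes and 4.19% of the most abundant.

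Ugp2, which supplies UDP-glucose, had 5 probe sets. The one used read 15771 on E+E and 16372 on P+E, against 28478 on E+P and 28370 on P+P. Its log2 ratios were -0.72 and -0.84, which is 1.65-fold and 1.79-fold lower. The 5 probe sets lay between -1.10 and -0.46 for P+E over P+P and between -0.84 and -0.64 for E+E over E+P. So all 5 were lower in both ratios, with 1 of them past 2-fold in the first.

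Gbe1, the branching enzyme, read 3023 on E+E, 3431 on P+E, 3741 on E+P and 3901 on P+P. The order was that of Ppp1r3b, but the whole span was 0.33 on the log2 scale. Its log2 ratios were -0.12 for P+E over P+P and -0.27 for E+E over E+P. For E+E over E+P 33.2% of all genes had lower ratios than Gbe1.

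Pygl, the phosphorylase that degrades liver glycogen, read 23409 on E+E and 25560 on P+E, against 20822 on E+P and 22135 on P+P. The ethylbenzene-second arrays were the higher ones, by log2 ratios of 0.24 (P+E over P+P) and 0.19 (E+E over E+P), or 1.18-fold and 1.14-fold. Among all genes 71.9% and 67.1% had lower ratios. From the signals as deposited, with no pseudocount, the log2 ratios of Pygl were 0.21 and 0.17.

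Slc2a2, the hepatocyte glucose transporter, read 10695 on E+E and 11275 on P+E, against 19599 on E+P and 18460 on P+P. The arrays paired by the second exposure, as for Gys2 and Ugp2, and the transporter was 1.61-fold lower for P+E over P+P (log2 ratio -0.69) and 1.78-fold lower for E+E over E+P (-0.83). Gckr, which encodes a regulator of glucose phosphorylation, read 6370 on E+E and 7059 on P+E, against 6038 on E+P and 5903 on P+P. Its log2 ratios were 0.29 and 0.10.

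**Figure D2:**
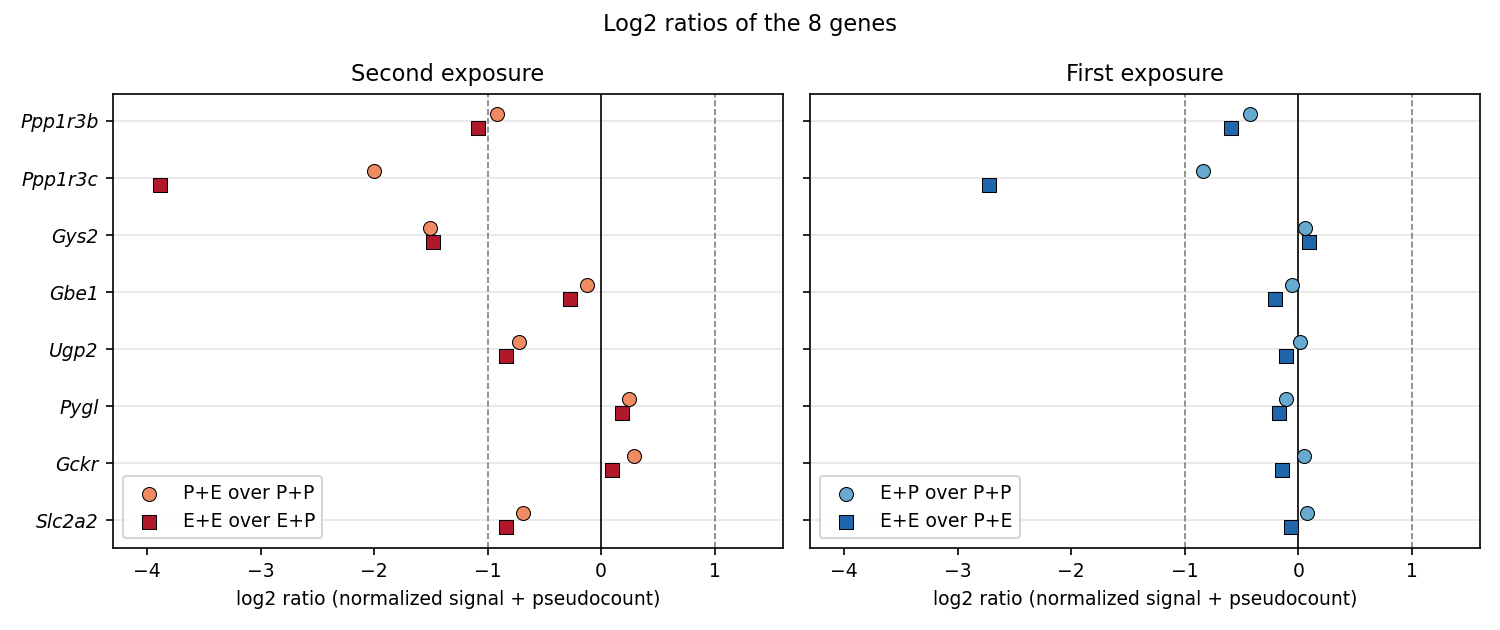
Log2 ratios of the 8 genes for the second exposure (left: P+E over P+P and E+E over E+P) and the first exposure (right: E+P over P+P and E+E over P+E). Dashed lines mark 2-fold. In the left panel 6 genes lie left of 0 in both ratios, and in the right panel only Ppp1r3c passes 2-fold, in 1 of the 2 ratios.

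Whether the first exposure went with a different response to the second was read from the difference of the second-exposure log2 ratios, E+E over E+P minus P+E over P+P. For 7 of the genes it was small: 0.03 for Gys2, -0.06 for Pygl, -0.12 for Ugp2, -0.14 for Slc2a2, -0.15 for Gbe1, -0.17 for Ppp1r3b and -0.19 for Gckr. Ppp1r3c stood apart with -1.89, the only member past 2-fold, where 15.1% of all genes and 1.46% of the most abundant lay. With E+E at the filter level it was -0.79. Its second probe set gave 0.76, the opposite direction, so a larger or smaller response of Ppp1r3c in mice given ethylbenzene first rests on the probe set. Each difference holds the error of all 4 arrays.

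The first exposure, 7 days earlier, was read from the ratios of E+P over P+P and of E+E over P+E. These ratios share their arrays with the second-exposure ratios. For E+P over P+P none of the 8 was at least 2-fold lower (2.73% of all genes, 0.234% of the most abundant) or higher (2.58% and 0.469%). For E+E over P+E 1 of the 8, Ppp1r3c, was at least 2-fold lower (3.99% of all genes, 0.234% of the most abundant) and none higher (3.98% and 0.339%). None of the 8 passed 2-fold in both first-exposure ratios, lower (0.243% of all genes) or higher (0.226% of all genes and 0.0261% of the most abundant). The median log2 ratio of the 8 genes was -0.02 and -0.15, beside -0.01 and 0.00 over all genes. Gys2 (0.06 and 0.09), Slc2a2 (0.08 and -0.06), Ugp2 (0.01 and -0.11) and Gckr (0.05 and -0.14) were near 0. Pygl was at -0.11 and -0.17 and Gbe1 at -0.06 and -0.20.

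Among the 8 genes, Ppp1r3b and, through its brighter probe set, Ppp1r3c had the lowest first-exposure ratios. Other targeting subunits, given below with the wider pathway, did not all share that direction. Ppp1r3b was at -0.42 and -0.59, or 1.34-fold and 1.5-fold lower. Ppp1r3c was at -0.84 and -2.73 through its brighter probe set, the second being at least 3.08-fold lower with E+E at the filter level. Through its other probe set it was at -0.60 and 0.17, so both probe sets were lower in the first of these ratios only. That ratio uses the P+P array with its deviating controls.

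Profiles over the 4 arrays were compared with those of 10994 other genes by the root mean square distance of their centred log2 signals. This was done for the 2 genes at least 2-fold lower in both second-exposure ratios through the probe set used. Nearest to Gys2 were Polg2 (distance 0.01), which encodes a subunit of the mitochondrial DNA polymerase, Tef (0.02), a transcription factor of the clock-controlled PAR bZIP family, and Hsd3b2 (0.06), of the steroid dehydrogenase family. Tef read 2088 on E+E and 1963 on P+E, against 5909 on E+P and 5802 on P+P. All 3 followed the pairing of the arrays by the second exposure, which follows from their choice as the profiles nearest to Gys2.

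Nearest to the brighter Ppp1r3c probe set were Ciart (0.14) and Per1 (0.48), both repressors in the circadian clock, and Hdhd3 (0.57), a hydrolase-like gene. On E+E all 4 signals (Ppp1r3c 36.4, Ciart 20.6, Per1 31.9 and Hdhd3 52.2) lay below the low-level filter, so these distances rest in part on values at that low level. Ciart read 20.6 on E+E, 303 on P+E, 927 on E+P and 1462 on P+P, the same order as Ppp1r3c, to which it was chosen as nearest. The likeness was not shared by the second Ppp1r3c probe set, from which Ciart lay at 1.37 and Per1 at 0.92, and whose nearest genes were Sac3d1 (0.04), Pdxk (0.05) and Ndufaf4 (0.06). With 4 arrays such distances describe these arrays only. The E-box motif shown for Ppp1r3c was also present in the promoter window of Ciart, in 1 of 2 windows of Per1 and in both windows of Tef, and was absent from those of Hdhd3, Polg2 and Hsd3b2. The D-box motif TTATGTAA, the other one searched there, was found in 0 windows of these 6 genes, beside 0.94% of all windows. These windows were looked up after the profiles had been compared.

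**Figure D3:**
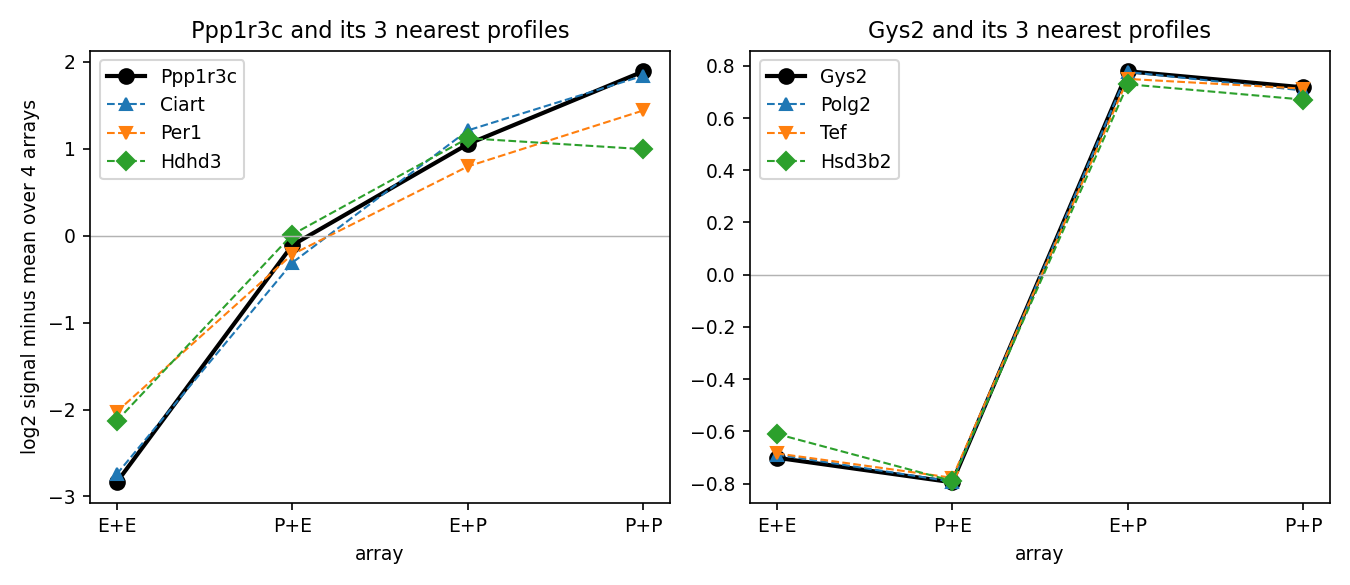
Log2 signal minus its mean over the 4 arrays for Ppp1r3c (left, brighter probe set) and Gys2 (right) with the 3 genes nearest to each. The neighbours were chosen for their likeness, so that they share the pattern is no separate result. Gys2 and its neighbours split by the second exposure. Ppp1r3c and Ciart are lowest on E+E, where both signals lie below the low-level filter, and highest on P+P.

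The wider pathway was read from a list of 67 other genes of glycogen and glucose handling. Of these, 60 had a probe set of their own and were analysed here, and 53 of them passed the filter. For P+E over P+P, 2 were at least 2-fold higher and 4 lower. For E+E over E+P, 3 were higher and 6 lower, with median log2 ratios of -0.16 and -0.12. In both ratios only Irs2 was higher and only Srebf1 lower. Over all genes 6.53% to 6.91% passed 2-fold in each direction of these second-exposure ratios. For the first exposure, 3 listed genes were higher and 1 lower for E+P over P+P (2.58% and 2.73% of all genes). For E+E over P+E, 2 were higher and 3 lower (3.98% and 3.99%).

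Among subunits and partners of the phosphatase, 7 of 8 listed genes passed the filter. The catalytic subunit genes Ppp1ca (0.17 and -0.05 for P+E over P+P and E+E over E+P) and Ppp1cc (0.84 and 0.50) stayed short of 2-fold. Of the other targeting subunits, Ppp1r3e was at -1.35 and -0.29, Ppp1r3f at 0.63 and 0.89 and Ppp1r3g at -0.20 and 0.33. Ppp1r3e read 292 on E+E and 212 on P+E, against 345 on E+P and 579 on P+P, so its arrays also split by the second exposure, at far less than the range of Ppp1r3c. Only 1 of its 2 probe sets had the direction given, in each second-exposure ratio. In the first-exposure ratios (E+P over P+P and E+E over P+E) Ppp1r3f was at 1.02 and 1.29, with a P+P signal of only 41.7. Ppp1r3g was at 0.82 and 1.35, Ppp1r3e at -0.65 and 0.41, and Ppp1r3d, below the filter, at -0.09 and -1.50. So Ppp1r3f and Ppp1r3g were higher there, where Ppp1r3b was lower. The medians of the 7 genes were 0.09 and 0.41.

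Other genes of glycogen synthesis and breakdown were read in the same ratios. Gys1, the synthase of muscle and other tissues, was at -1.08 and 0.51, with signals of 195 on E+E and 82.3 on P+E, against 110 on E+P and 197 on P+P, and 1 of its 2 probe sets lower in the first. The genes named as phosphoglucomutases were at -0.45 and -0.15 (Pgm1) and 0.98 and 0.75 (Pgm2), both short of 2-fold. Pygm, the muscle phosphorylase, was at -0.92 and -1.37 with signals of only 78.2 on E+E and 90.4 on P+E, against 244 on E+P and 185 on P+P. The phosphorylase kinase subunit gene Phka2 (-0.10 and -0.59) and the lysosomal glucosidase gene Gaa (-0.34 and -0.05) stayed short of 2-fold.

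Stbd1, which anchors glycogen to membranes for lysosomal delivery, read 1837 on E+E, 2700 on P+E, 4035 on E+P and 3710 on P+P. It was at -0.40 and -1.07, lower on each ethylbenzene-second array. Epm2a, the glycogen phosphatase laforin, was at -0.12 and 0.09. Of the kinases, Prkaa2, a catalytic subunit of AMP-activated kinase, was at -1.28 and -0.69, but only 1 of its 3 probe sets was lower in the first. Prkab1, a regulatory subunit of the same kinase, was at 0.60 and 1.02, with both probe sets higher in each. Gsk3a (-0.02 and -0.13), which phosphorylates glycogen synthase, and Prkar1a (0.15 and -0.12), which restrains protein kinase A, were near 0.

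In glucose phosphorylation and release, G6pc, the catalytic subunit of glucose-6-phosphatase, was lower on the arrays with ethylbenzene first. It read 6537 on E+E, 13443 on P+E, 8060 on E+P and 16452 on P+P, so both arrays with ethylbenzene first lay below both others. Its log2 ratios were -1.01 for E+P over P+P and -1.04 for E+E over P+E. For the second exposure they were -0.24 for P+E over P+P and -0.27 for E+E over E+P. At least 2-fold lower in both first-exposure ratios were 0.243% of all genes and 0.0521% of the 3838 most abundant, or 2 genes, of which G6pc is 1. It has 1 probe set, and its first ratio is barely past 2-fold and uses the P+P array with its deviating controls. Of the listed genes past the filter, G6pc was the only 1 at least 2-fold lower in both first-exposure ratios. Ppp1r3f was the only 1 at least 2-fold higher in both, beside 0.226% of all genes.

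The glucose-6-phosphate transporter gene Slc37a4 was at -0.24 and -0.64 for the second exposure and at 0.07 and -0.33 for the first. G6pc3, a ubiquitous relative of G6pc, was at 0.13 and -0.67 for the second and at -0.48 and -1.27 for the first. The hexokinase genes Hk2 (0.19 and 0.09) and Hk3 (0.26 and -1.09) had low signals, at most 508 on any array. Of the other transporters, Slc2a1 was at 0.32 and -0.64 and Slc2a8 at -0.35 and -0.46. Slc2a4, the insulin-responsive transporter of muscle and fat, was at 1.25 and -0.77, and its first ratio was higher in only 1 of 2 probe sets.

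Pfkfb3, which makes the activator of phosphofructokinase, read 2243 on E+E, 1328 on P+E, 785 on E+P and 1544 on P+P. It was at -0.16 and 1.5, and its second probe set was higher on E+E than on E+P as well. Khk, the fructose kinase (0.49 and 0.02), and Ugdh, which turns UDP-glucose to UDP-glucuronate (-0.43 and 0.11), were short of 2-fold.

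Among receptors and regulators, the glucagon receptor gene Gcgr (-0.05 and -0.03) and Mlxipl (-0.05 and -0.08), the carbohydrate response factor, were level. Srebf1, a regulator of lipid synthesis that insulin induces in liver, read 3142 on E+E and 3204 on P+E, against 9610 on E+P and 7370 on P+P. Its arrays split by the second exposure as those of Gys2 did, with log2 ratios of -1.15 and -1.58. Irs2, an adaptor of the insulin receptor, read 757 on E+E and 624 on P+E, against 296 on E+P and 45.6 on P+P. Its ratios were 2.82 and 1.22, and the P+P signal was below the filter level. Irs1 was at -0.50 and -1.15. Ppargc1a, a coactivator of genes of glucose production, was at -0.67 and -2.08, with a signal of 49.4 on E+E.

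**Figure D4:**
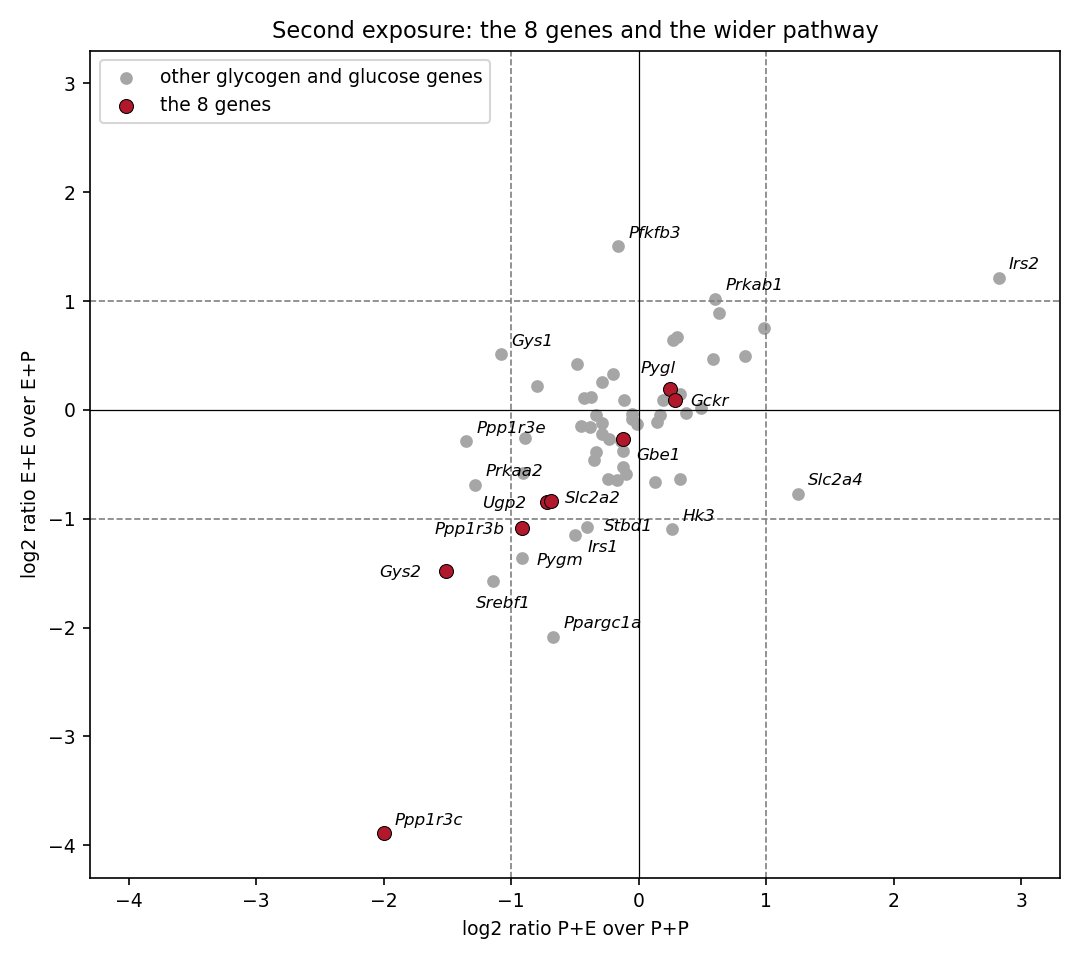
Log2 ratio of E+E over E+P against that of P+E over P+P for the 8 genes (red) and the 53 other genes of glycogen and glucose handling past the filter (grey). Dashed lines mark 2-fold and named grey points are past 2-fold in at least 1 ratio. Ppp1r3c (-2.0 and -3.89) and Gys2 (-1.51 and -1.48) lie past 2-fold in both, beside Srebf1 on the low side and Irs2 on the high side. Ppp1r3c is plotted through its brighter probe set, whose E+E signal lies below the filter. Its other probe set was at -0.65 for E+E over E+P.

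Markers of other cell types were read beside these values. Pancreatic acinar markers (6 measured of 9 listed) summed to 6488 on E+E and 6636 on P+E, against 2102 on E+P and 2741 on P+P, with 5 of 6 at least 2-fold higher in each second-exposure ratio. Neutrophil markers (5 of 5 measured) summed to 6129 on E+E and 3753 on P+E, against 459 on E+P and 871 on P+P. For E+E over E+P, 4 of the 5 neutrophil markers were at least 2-fold higher and none lower. For P+E over P+P, 2 were higher (S100a8 and S100a9) and 2 lower (Ltf and Mpo). Both sums were higher after ethylbenzene second, where Gys2, Ugp2 and Slc2a2 were lower, and their part in the lower signals was not tested. The hepatocyte marker ratios were close to 0, with medians of 0.02 and 0.05 and none of 5 past 2-fold. Quantile normalization gives the highest signals, such as that of Alb, nearly the same value on every array. These ratios therefore cannot show whether the share of hepatocytes was level. As deposited, the marker signals summed to 718031 on E+E and 661340 on P+E, against 596162 on E+P and 569368 on P+P. Kupffer cell markers (6 of 6) summed to 10363 on E+E, 8619 on P+E, 16693 on E+P and 10427 on P+P, highest on E+P.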

How the data were processed

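The authors deposited 1 table of linear probe set intensities for 45101 probe sets on 4 arrays, with 0 missing and 0 negative values. RNA of each group was pooled before labelling, per the labels. The summarisation software, its version and its scaling are not given in the sources used here, but the deposited intensities have the same mean (500.0) on every array once the lowest and highest 2% are left out. Their log2 medians lay 0.24 apart, above a limit of 0.1, so the arrays were quantile-normalized here and expressed as log2(signal + 43.2), the pseudocount being the 25th percentile of all deposited signals. The pseudocount understates differences of low signals.

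Gene names came from the platform annotation, updated for 34741 probe sets by Entrez identifier in a RefSeq table (GRCm38.p6). Of all probe sets 34945 had 1 gene, 932 had several, 64 were controls and 9160 had none listed. No genome build is named for the array, and coordinates are those of the RefSeq promoter table, which held windows for 6 of the 8 genes. Each gene was represented by the probe set with the highest mean log2 signal. The low-level filter was the median of these means over all probe sets (a signal of 120.0).

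With 1 array a group no test was run, and the number of arrays limits the precision. The members, the wider list, the motifs and the rule for named genes were chosen with earlier results of these data known. Named were all 8 genes, those of the wider list at least 2-fold apart in any ratio, up to 2 others of the highest signal per role, and the 3 nearest profiles. The steps were tested on simulated arrays with little noise, a check of the code that says nothing about the error of these arrays. Alternatives were other normalizations, pseudocounts, probe sets and filters. Python 3.11.15, numpy 2.4.6 and pandas 2.3.3 were used.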

Additional observations from a re-analysis of the deposited data

Results flagged for a closer look

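For 3 of the 8 genes the first-exposure log2 ratios pointed opposite ways in mice given PBS second and in mice given ethylbenzene second. Each such difference rests on 4 single arrays and was not tested. It is by arithmetic the same value as the difference of the second-exposure ratios given above, so it adds no further result. Through the probe sets used these ratios lay near 0, between -0.14 and 0.08. How many of all genes have opposite signs in this way was not counted. Ugp2 was at -0.11 for E+E over P+E and 0.01 for E+P over P+P, a difference of -0.12. This is the brightest of 5 Ugp2 probe sets: the next brightest was at 0.00 and -0.26, a difference of 0.26 in the other direction, and 2 others pointed the same way in both ratios (0.26 and 0.28, and -0.15 and -0.10). Gckr was at -0.14 and 0.05, a difference of -0.19. Slc2a2 was at -0.06 and 0.08, a difference of -0.14.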

How the results depend on the processing

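No paired analysis was possible because each group is 1 array, and for the same reason no replicate could be left out. For Gys2, directions and sides of the 2-fold rule in the second exposure held under each other normalization and pseudocount. Its log2 ratios were -1.63 to -1.50 for P+E over P+P and -1.52 to -1.47 for E+E over E+P. Gys2 has 1 probe set, with every signal above the filter level, so the alternatives of probe sets and filters could not move its ratios. Ppp1r3b passed 2-fold for P+E over P+P (-1.03) when the arrays were scaled to a common 75th percentile. Ppp1r3c depended on the probe set: with the next brightest probe set, an alternative chosen after seeing the data, E+E over P+E was 0.17 and the difference of the second-exposure ratios 0.76, both reversed, and 0 members were then at least 2-fold apart on E+E against P+E. No member had second-exposure ratios 2-fold apart (0 of 8) with that probe set, with the mean of the probe sets, or with signals under the filter raised to its level. Quantile normalization without P+P, also chosen after seeing the data, left 3 members lower on E+E against E+P and 1 on E+E against P+E. The number of wider-list genes past 2-fold on P+E against P+P (6) became 10 with a pseudocount of 1, 10 with no filter, 3 with the mean of the probe sets and 2 with a filter at the 75th percentile. That filter, which leaves 35 genes of the list, gave 5 in place of 9 on E+E against E+P, 1 in place of 4 on E+P against P+P and 1 in place of 5 on E+E against P+E. A pseudocount of 100 gave 2 on E+P against P+P. Apart from these, the counts of members and listed genes stayed within 1.5 times. Signals below the filter level, as for Ppp1r3c on E+E, limit what these arrays can show.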

Other observations

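Some genes of the wider list were read below the low-level filter, and their ratios describe faint signals. Slc2a5, a fructose transporter, read 41.0 on E+E and 37.3 on P+E, against 318 on E+P and 243 on P+P, with log2 ratios of -1.95 for P+E over P+P and -2.20 for E+E over E+P. Slc2a10, another sugar transporter gene, was at -1.02 and -1.53 in the same ratios, with both of its probe sets lower. Hkdc1, a hexokinase-like gene, was at 1.55 and -1.07, the glycogen-targeting subunit gene Ppp1r3d at 1.22 and -0.19, and the phosphorylase kinase gene Phkg1 at 0.35 and 1.26.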
